A study of Mus musculus with 19 samples.

Results

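The peroxisome proliferator-activated receptors (PPARs), their binding partners, and their coactivators were followed in small intestinal crypts of mice with and without neurotensin (NT). The 10 genes are the receptors Ppara, Ppard, and Pparg, the retinoid X receptors Rxra and Rxrb, the coactivators Ppargc1a (PGC-1α), Ppargc1b (PGC-1β), and Med1, the corepressor Ncor1, and the estrogen-related receptor Esrra. They were matched by symbol to 10 of the 55487 Ensembl genes (GRCm38) in the deposited files, 1 gene ID for each, and all 10 were among the 17875 genes with enough counts to be tested. RNA sequencing was available for crypts of 19 C57BL/6 mice in 4 groups. Food was freely available to 5 NT+/+ and 4 NT-/- mice, while 5 mice of each genotype went without food for 48 hours and had only water. NT-/- mice lack the gene for NT (Nts), a gut peptide released by enteroendocrine cells, and the labels name no other altered allele. The study also describes its NT+/+ and NT-/- mice as carrying the Lgr5-EGFP knock-in, a reporter in stem cells, and lists mice without it; which of these were sequenced is not given in the sources used here. The mice in the fasting studies were males and females of 10 to 16 weeks. The crypts came from the larger, proximal part of the small intestine, without its distal part, and were released with EDTA and filtered. Each library is thus a mixture of the cells released in this way. Markers of absorptive enterocytes and of leukocytes were found in the libraries too, as given below.

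PPARs are nuclear receptors that bind fatty acids and their derivatives, pair with an RXR, and sit on DNA at a direct repeat of a short half-site, from which they switch on genes of fatty acid uptake and oxidation. PPARα is best known for the response of liver and intestine to fasting, PPARδ is widely expressed and abundant in the intestinal epithelium, and PPARγ is the receptor of fat cells and of differentiated colon epithelium. PGC-1 coactivators and Med1, a subunit of the Mediator complex, link the bound receptor to transcription, NCoR1 recruits a histone deacetylase in the absence of ligand, and ERRα directs mitochondrial genes together with PGC-1.

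Each library held between 9059418 and 35068669 counts assigned to genes, with the 2 smallest, 9059418 and 10067595, among the fasted NT-/- mice. Nts checked the labels: it was at 7.48, 7.74, 8.59, 6.75 and 8.55 CPM (counts scaled to library size with TMM) in fed NT+/+ mice and at 0.147, 0.216, 0.144 and 0.746 CPM in fed NT-/- mice. After fasting, Nts was at 5.5, 4.98, 5.45, 5.71 and 5.43 CPM in NT+/+ and at 0.214, 0.34, 0.52, 0.296 and 0.793 CPM in NT-/- mice. The last of the fasted NT+/+ mice by title carries NT-/- as its genotype label, and its Nts level of 5.43 CPM lay within the range of the other fasted NT+/+ mice. It was grouped by its title, as were all mice, and the tests of the members were also run with it as NT-/- and without it. Defining crypt markers were present, with summed CPM of the 6 Paneth cell markers from 17579 to 42357 and of the 5 stem cell markers from 1269 to 3299 over the 19 mice. The fat cell genes Adipoq, Lep, Plin1, Cfd, and Fabp4 had at most 6 counts in any mouse, while Plin4, the sixth gene of the fat cell list, had 23 to 77 counts and was not called in any comparison.

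In the GRCm38 annotation the 3 PPAR genes lie apart, Ppara at chr15:85734983-85802819 (+), Ppard at chr17:28232700-28301474 (+), and Pparg at chr6:115360951-115490399 (+). Rxra lies at chr2:27676440-27762957 (+) and Rxrb at chr17:34031812-34038399 (+). The coactivators lie at chr5:51454250-51567726 (-) for Ppargc1a, chr18:61298136-61400431 (-) for Ppargc1b, and chr11:98152154-98193293 (-) for Med1. Ncor1 lies at chr11:62316426-62458541 (-) and Esrra at chr19:6910977-6921813 (-). All 10 are protein-coding, and 8 share no exonic base with another gene.

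Levels were first set in order in TPM, which is scaled to library size and transcript length, so that different genes can be compared. In fed NT+/+ mice (n = 5), the order ran from Ncor1 at 199.99 ± 40.8 TPM (mean ± SD), through Ppard at 77.4 ± 3.99, Esrra at 68.1 ± 5.64, Med1 at 35.3 ± 2.28, and Rxra at 28.3 ± 2.09, to Rxrb at 25.5 ± 2.18, Ppargc1b at 24.2 ± 2.77, Ppargc1a at 20.1 ± 4.72, Ppara at 14.0 ± 1.43, and Pparg at 4.05 ± 1.56 TPM. The ranges of the 5 mice overlapped between the neighbours Ppard and Esrra, and along the run from Rxra to Ppara. Within single mice, Ppard was above Esrra, Rxra above Rxrb, and Ppargc1b above Ppargc1a in each of the 5. The order of Rxrb and Ppargc1b, and of Ppargc1a and Ppara, differed between mice. Ncor1, Ppard and Esrra together, Med1, the run from Rxra to Ppara, and Pparg stood clear of each other. The order was Ncor1, Ppard, Esrra, Med1, and Rxra at the top and Ppara and Pparg at the bottom in fed NT-/- mice too (n = 4), with Ppard at 81.4 ± 7.55, Ppara at 15.2 ± 1.29, and Pparg at 3.86 ± 1.32 TPM. In fasted NT+/+ mice (n = 5) Rxra, at 38.4 ± 5.15 TPM, came before Ppard at 35.7 ± 8.44 TPM, with overlapping mice, and Ppara at 20.2 ± 3.95 TPM before Ppargc1b at 17.5 ± 1.77 TPM, again with overlap. Pparg, at 8.58 ± 1.56 TPM in NT+/+ and 11.2 ± 2.15 TPM in NT-/- mice, remained last. The TPM of Ncor1 was computed with a mean transcript length of 2553 to 3027 bases, while its longest annotated transcript has 9037 bases.

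Fasting changed 6 of the 10 genes in NT+/+ mice, 3 upward (Ppara, Pparg, and Rxra) and 3 downward (Ppard, Ppargc1b, and Med1), by edgeR's quasi-likelihood test with an adjusted p under 0.05 over all genes tested. Over all 17875 genes the same test called 21.6%, 11.2% upward and 10.4% downward. In NT-/- mice 7 of the 10 genes changed, the same 6 in the same directions and Ncor1 upward, against 25.2% of all genes, 12.5% upward and 12.6% downward. The fed and fasted mice did not overlap in CPM for 4 of the 10 genes in NT+/+ mice (Ppard, Pparg, Rxra, and Med1), against 14.6% of all genes, and for 5 in NT-/- mice (the same 4 and Ppargc1b), against 21.3%. The median log2 fold change of the 10 genes was 0.13 in NT+/+ and 0.12 in NT-/- mice, beside -0.01 and -0.02 over all genes tested, with members moving both ways.

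**Figure D1:**
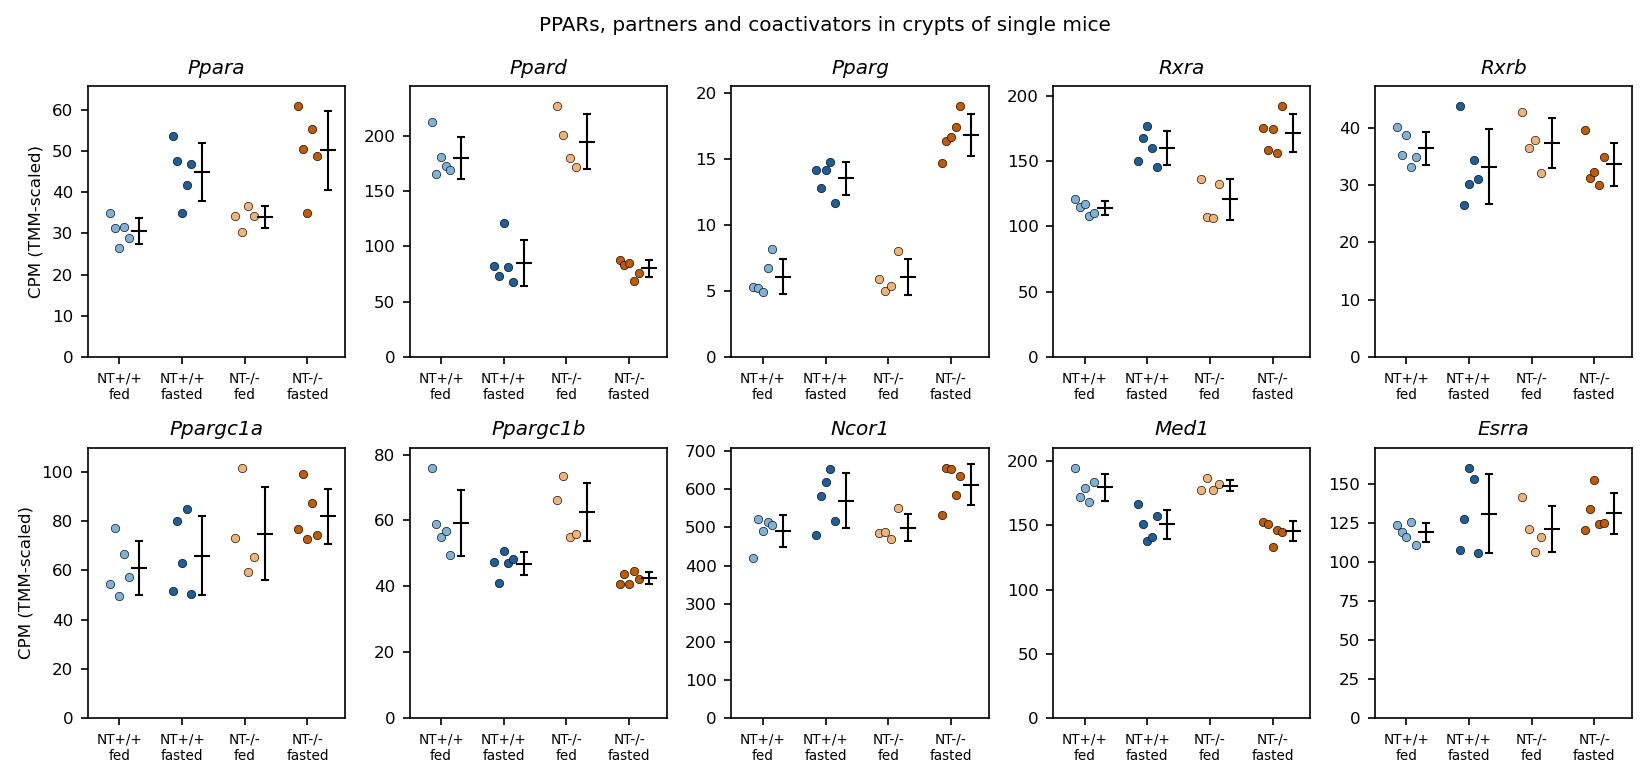
CPM of the 10 genes in each of 19 mice (points), with the mean and SD of each group (black bars); the y axes start at 0 and differ between genes. Ppard is lower and Pparg, Rxra, and Ppara are higher on average in the fasted groups of both genotypes, and the fed and fasted points of Ppard, Pparg, Rxra, and Med1 do not overlap within a genotype.

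Markers of some cell types moved with the same comparison. Summed CPM of the 10 absorptive enterocyte markers (lowest, median, and highest mouse) was 4892, 9138 and 9912 in fed NT+/+ mice and 8589, 15796 and 17839 in fasted NT+/+ mice. In NT-/- mice it was 7249, 9200.2 and 10982 fed and 15460.0, 21121 and 22727 fasted. Of these 10 markers, 7 rose in NT+/+ and 10 in NT-/- mice, while 3 and 4 of the 5 markers of dividing cells fell. Of the 6 goblet cell markers 2 and 4 fell, and of the 5 stem cell markers 1 and 2 fell. Other lists moved little: of the 6 Paneth cell markers none was called in NT+/+ and 1, downward, in NT-/- mice. Of the 6 enteroendocrine cell markers 1 rose in each genotype, and none of the 4 tuft cell markers was called. The same test called 21.6% and 25.2% of all genes. Stem cell markers went both ways in NT+/+ mice, with log2 fold changes from -0.63 to 0.63. Of them 2 were positive in NT+/+ and 1 in NT-/- mice, and of the goblet cell markers 2 in each genotype, none of these called. In a bulk library a change in the number of cells of a type and a change in RNA per cell cannot be told apart, and the part of cell type in the changes of the 10 genes was not tested. The 9 leukocyte markers summed to between 59.0 and 159 CPM over all mice, with 1 of 8 tested markers called, downward, in each genotype, and no marker of any list was called between genotypes.

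Ppard, which encodes PPARδ, fell the furthest of the 10 genes. It was at 213, 166, 181, 173 and 169 CPM in fed NT+/+ mice and at 82.3, 73.5, 121, 81.6 and 67.4 CPM in fasted NT+/+ mice. Fed NT-/- mice had 227, 201, 180.0 and 172 CPM and fasted NT-/- mice 88.1, 83.3, 85.1, 68.6 and 76.0 CPM. Every fasted mouse lay below every fed mouse of its genotype, and the highest fasted value, 121 CPM in NT+/+ mouse 3, stood apart from the other 4 fasted NT+/+ mice. The log2 fold change, fasted over fed, was -1.08 ± 0.13 (SE; adjusted p = 7.93e-06, edgeR) in NT+/+ and -1.28 ± 0.13 (adjusted p = 2.06e-06) in NT-/- mice. Fasted crypts held 0.473 and 0.411 of the fed level. In TPM, Ppard went from 77.4 ± 3.99 to 35.7 ± 8.44 in NT+/+ and from 81.4 ± 7.55 to 34.6 ± 4.55 in NT-/- mice.

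Pparg, which encodes PPARγ, rose the most. It was at 5.33, 5.25, 4.95, 6.7 and 8.17 CPM in fed NT+/+ mice and at 14.2, 12.8, 14.1, 14.8 and 11.7 CPM in fasted NT+/+ mice. The values in NT-/- mice were 5.93, 4.98, 5.34 and 8.04 CPM fed and 14.7, 16.3, 16.7, 17.5 and 19.02 CPM fasted. No fasted mouse overlapped with the fed mice of either genotype, and Pparg had the fewest reads of the 10 genes, between 75 and 201 rounded counts in each fed mouse and between 144 and 360 in each fasted mouse. The log2 fold change was 1.15 ± 0.15 (adjusted p = 1.76e-05, edgeR) in NT+/+ and 1.47 ± 0.16 (adjusted p = 2.48e-06) in NT-/- mice, or 2.22-fold and 2.77-fold. Summed CPM of the 6 fat cell genes (lowest, median, and highest mouse) was 2.21, 2.64 and 3.51 fed and 1.39, 2.63 and 3.14 fasted in NT+/+ mice, and 1.83, 2.32 and 2.87 fed and 1.45, 2.01 and 4.24 fasted in NT-/- mice; their part in the level of Pparg was not tested.

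Ppara, which encodes PPARα, rose less than Pparg. It was at 35.0, 31.3, 26.6, 31.6 and 29.0 CPM in fed NT+/+ mice and at 53.7, 47.6, 34.9, 41.9 and 46.9 CPM in fasted NT+/+ mice. Fed NT-/- mice had 34.3, 30.3, 36.7 and 34.2 CPM and fasted NT-/- mice 60.9, 50.5, 35.0, 55.3 and 48.9 CPM. Mouse 3 was the lowest of the fasted mice in both genotypes, at 34.9 and 35.0 CPM, and was the only fasted mouse within the range of the fed mice of its genotype. The log2 fold change was 0.55 ± 0.13 (adjusted p = 0.00397, edgeR) in NT+/+ and 0.56 ± 0.13 (adjusted p = 0.00433) in NT-/- mice.

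The make-up of the PPAR transcripts shifted accordingly. Ppard provided 81.2% ± 1.61 (SD, n = 5) of the summed TPM of the 3 receptors in fed NT+/+ mice and 80.9% ± 2.9 (n = 4) in fed NT-/- mice. After fasting its share was 55.0% ± 7.59 in NT+/+ and 50.2% ± 4.94 in NT-/- mice (n = 5 each). The share of Ppara went from 14.6% ± 0.879 to 31.7% ± 6.93 in NT+/+ and from 15.2% ± 2.00 to 33.5% ± 5.26 in NT-/- mice. Pparg went from 4.21% ± 1.48 to 13.3% ± 1.67 and from 3.85% ± 1.32 to 16.2% ± 3.13. Ppard was the largest of the 3 in each of the 19 mice, from 43.5% to 83.9%, and its fasted shares (50.2% to 68.2% in NT+/+ and 43.5% to 57.4% in NT-/- mice) did not overlap with its fed shares (79.4% to 83.2% and 77.6% to 83.9%). The summed level of the 3 receptors was 95.5 ± 5.85 TPM fed and 64.5 ± 8.19 TPM fasted in NT+/+ mice, and 100.5 ± 6.61 TPM fed and 69.0 ± 8.02 TPM fasted in NT-/- mice. These shares are descriptions and were not tested.

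**Figure D2:**
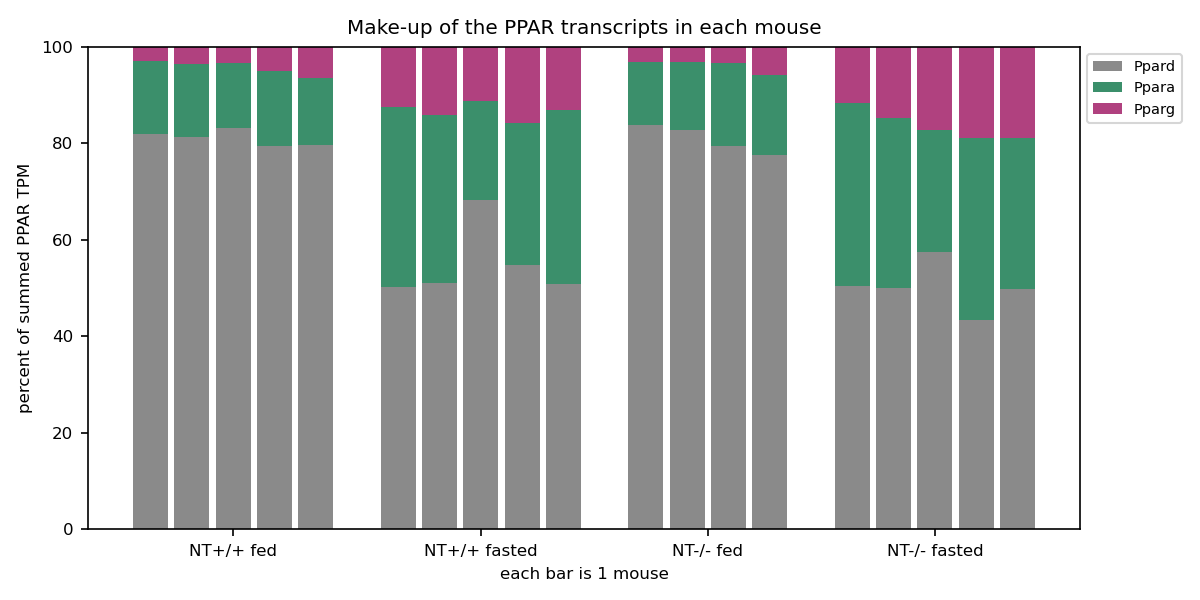
Percent of the summed TPM of Ppard, Ppara, and Pparg in each mouse (1 bar per mouse, 19 in all, grouped by genotype and diet). Ppard makes up 77.6% to 83.9% of each fed bar and 43.5% to 68.2% of each fasted bar.

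RXRα and RXRβ are the obligate partners of PPARs. Rxra was at 121, 115, 117, 108 and 110.0 CPM in fed NT+/+ mice and at 149.99, 168, 177, 159.9 and 145 CPM in fasted NT+/+ mice. The values in NT-/- mice were 137, 107, 106 and 132 CPM fed and 176, 159, 175, 156 and 192 CPM fasted. Fed and fasted mice did not overlap in either genotype, and the log2 fold change was 0.49 ± 0.08 (adjusted p = 0.000298, edgeR) in NT+/+ and 0.51 ± 0.09 (adjusted p = 0.000303) in NT-/- mice. Rxrb was at 36.5 ± 2.85 CPM fed and 33.2 ± 6.58 CPM fasted in NT+/+ mice (SD, n = 5 each), and its fed and fasted mice overlapped. Its log2 fold change had a 95% interval of -0.37 to 0.10 in NT+/+ (adjusted p = 0.439, edgeR) and of -0.40 to 0.10 in NT-/- mice (adjusted p = 0.406). Rxrg, the third RXR gene, had at most 1 count in any mouse and was not tested. The share of Rxra in the summed TPM of Rxra and Rxrb was 52.7% ± 1.14 fed and 64.3% ± 5.26 fasted in NT+/+ mice, and 55.4% ± 3.67 fed and 65.3% ± 2.44 fasted in NT-/- mice.

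PPAR and RXR bind as a pair to a direct repeat of the half-site AGGTCA with 1 base between the repeats, so the RefSeq promoter windows (250 bases before to 50 bases after each start site, GRCm38.p6) were searched on both strands, for the members that have such a window: 9 of the 10 genes, in 14 windows. The full repeat AGGTCANAGGTCA was in 0.0396% of all 32851 windows and in none of the 14. A relaxed form that keeps its inner letters, GGNCANAGGNC, and so overlaps with every full repeat, was in 2.14% of all windows and in 1 of the 14, a window of Rxra, with 2 matches. The half-site alone was in 16.3% of all windows and in 3 of the 14, of Rxra and Pparg, and TCAAGGTCA, the extended half-site of ERR receptors, in 0.423% of all windows and in none of the 14. The stretch of Rxra is shown because it holds the 2 matches, in capitals, in the 100 bases directly before a second start site (plus strand, chr2:27709192-27709291), which lies 32852 bases into the annotated gene, in an intron of its longer transcripts.
Rxra: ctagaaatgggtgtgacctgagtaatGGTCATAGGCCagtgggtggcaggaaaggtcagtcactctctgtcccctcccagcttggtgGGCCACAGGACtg
The matches begin 74 and 13 bases before that start site. They are matches of letters and were not measured for binding, and a window without a match says nothing of sites elsewhere.

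The PGC-1 coactivators did not move alike. Ppargc1b was at 76.0, 59.0, 55.0, 56.7 and 49.5 CPM in fed NT+/+ mice and at 47.3, 41.1, 50.7, 47.2 and 48.2 CPM in fasted NT+/+ mice. Fed NT-/- mice had 66.1, 73.5, 55.1 and 55.8 CPM and fasted NT-/- mice 40.6, 43.9, 40.7, 44.8 and 42.4 CPM. Fed and fasted mice overlapped in NT+/+, at 49.5 CPM fed and 50.7 CPM fasted, and were apart in NT-/- mice. The log2 fold change was -0.34 ± 0.10 (adjusted p = 0.0203, edgeR) in NT+/+ and -0.56 ± 0.11 (adjusted p = 0.000707) in NT-/- mice. The call in NT+/+ mice was lost without fed mouse 1, the highest value (log2 fold change -0.23, adjusted p = 0.068), or without fasted mouse 2, the lowest (-0.29, adjusted p = 0.0604).

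Ppargc1a, the fasting-responsive coactivator of liver and muscle, was at 54.3, 77.0, 49.5, 66.5 and 57.3 CPM in fed and 51.6, 80.0, 62.8, 84.9 and 50.4 CPM in fasted NT+/+ mice. The values in NT-/- mice were 73.2, 102, 59.1 and 65.6 CPM fed and 76.6, 98.9, 72.6, 87.3 and 74.3 CPM fasted. The groups overlapped throughout, and mouse 2 was the highest of 3 of the 4 groups. The 95% interval of the log2 fold change was -0.23 to 0.46 in NT+/+ (adjusted p = 0.679, edgeR) and -0.24 to 0.49 in NT-/- mice (adjusted p = 0.65). The share of Ppargc1a in the summed TPM of Ppargc1a and Ppargc1b was 45.0% ± 5.36 fed and 54.4% ± 7.25 fasted in NT+/+, and 48.6% ± 2.57 fed and 61.2% ± 3.26 fasted in NT-/- mice.

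Esrra was at 119 ± 5.95 CPM fed and 131 ± 25.2 CPM fasted in NT+/+ mice, with single fasted mice at 108, 127, 160.4, 153 and 106 CPM, so that the fasted mice lay on both sides of the fed range of 111 to 126. The 95% interval of its log2 fold change was -0.09 to 0.37 in NT+/+ and -0.13 to 0.36 in NT-/- mice (adjusted p = 0.401 and 0.516, edgeR). Of its 4387 exonic bases, 164 are shared with Mir6990 or with Trmt112 on the other strand, and the strand setting of the counting is not given in the sources used here.

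Among 25 mitochondrial genes known as targets of PGC-1 and ERR, 1 rose and 4 fell in NT+/+ mice and none rose and 3 fell in NT-/- mice. The same test called 21.6% of all genes in NT+/+ (10.4% downward) and 25.2% in NT-/- mice (12.6% downward). Taken over both directions, the counts of the list are not above these shares. The 4 that fell in NT+/+ mice are above the downward share, and the 3 that fell in NT-/- mice are not. The median log2 fold change was -0.14 and -0.10, beside -0.01 and -0.02 over all genes. The highest log2 fold change of the list in NT+/+ mice was 0.49, and the genes named below are all among those that fell. Cycs, the gene of cytochrome c, fell by 0.77 ± 0.13 on the log2 scale in NT+/+ (adjusted p = 0.000291, edgeR) and by 0.70 ± 0.14 in NT-/- mice (adjusted p = 0.000912). Cox6c, a subunit of cytochrome c oxidase, had a log2 fold change of -0.25 ± 0.06 and -0.17 ± 0.06 (adjusted p = 0.00406 and 0.0497). Tfam, the factor that packs and transcribes mitochondrial DNA, had -0.27 ± 0.09 and -0.26 ± 0.09 (adjusted p = 0.0292 and 0.0441). These 3 genes were past the threshold in both genotypes, and 20 of the 25 in neither.

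Med1, also known as TRAP220, fell a little in both genotypes. It was at 195, 172, 179, 168 and 183 CPM in fed NT+/+ mice and at 166, 151, 138, 141 and 157 CPM in fasted NT+/+ mice. Fed NT-/- mice had 177, 186, 178 and 182 CPM and fasted NT-/- mice 153, 151, 133, 146 and 145 CPM. Each fasted mouse lay below each fed mouse of its genotype, and the log2 fold change was -0.25 ± 0.06 (adjusted p = 0.00657, edgeR) in NT+/+ and -0.31 ± 0.07 (adjusted p = 0.00169) in NT-/- mice. The other 31 Mediator subunits and kinase module genes did not share a direction: 2 rose and 4 fell in each genotype, with a median log2 fold change of -0.01 and -0.06. Taken over both directions, these counts are below the share of all genes called, 21.6% in NT+/+ and 25.2% in NT-/- mice. The 4 that fell in each genotype are above the downward share of all genes, 10.4% and 12.6%. Med14, the scaffold of the complex, had -0.42 ± 0.09 in NT+/+ and -0.37 ± 0.10 in NT-/- mice (adjusted p = 0.00316 and 0.00835, edgeR). Med21, a small subunit of the middle module, had -0.44 ± 0.11 and -0.55 ± 0.12 (adjusted p = 0.00965 and 0.00263), and Ccnc, the cyclin of the kinase module, -0.42 ± 0.11 and -0.34 ± 0.12 (adjusted p = 0.00952 and 0.0347). Med25 rose in NT+/+ mice (0.32 ± 0.07, adjusted p = 0.00414) and had 0.21 ± 0.08 in NT-/- mice (adjusted p = 0.0604), while Med16 had 0.20 ± 0.09 in NT+/+ (adjusted p = 0.137) and rose in NT-/- mice (0.35 ± 0.10, adjusted p = 0.0159).

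Ncor1 was at 420.4, 521, 489.7, 514 and 506 CPM in fed NT+/+ mice and at 480.0, 583, 618, 653 and 517 CPM in fasted NT+/+ mice. The values in NT-/- mice were 486, 489, 470.0 and 551 CPM fed and 533, 657, 652, 583 and 635 CPM fasted. Fed and fasted mice overlapped in both genotypes. The log2 fold change was 0.22 ± 0.09 in NT+/+ (adjusted p = 0.102, edgeR) and 0.29 ± 0.10 in NT-/- mice (adjusted p = 0.0341). Both calls turned with the setting: with the mice blocked by the number they share across groups, Ncor1 passed the threshold in NT+/+ mice too (adjusted p = 0.045 by the number in the title and 0.0377 by that in the deposited file), as it did without fasted mouse 1 (adjusted p = 0.039), and in NT-/- mice it missed the threshold in 10 of 30 alternatives, with adjusted p up to 0.1. The fasted NT+/+ mice with the lowest Ncor1, at 480.0 and 517 CPM, were also those with the lowest summed enterocyte markers, 8589 and 10857 CPM; the link was not tested.

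Of 8 other corepressor genes, 1 fell in NT+/+ (Tbl1xr1, -0.31 ± 0.08, adjusted p = 0.00899, edgeR) and 1 rose in NT-/- mice (Nrip1, 0.29 ± 0.10, adjusted p = 0.0389). Tbl1xr1, a subunit of the NCoR complex, had -0.17 ± 0.08 in NT-/- mice (adjusted p = 0.146), and Nrip1 (RIP140) had 0.14 ± 0.09 in NT+/+ mice (adjusted p = 0.297). Of 17 other coactivators and associated enzymes, 1 fell in NT+/+ mice, and 1 rose and 2 fell in NT-/- mice. For corepressors and coactivators alike, the counts over both directions are below the share of all genes called, 21.6% in NT+/+ and 25.2% in NT-/- mice. Lpin1, a phosphatidate phosphatase that also binds PPARα and PGC-1α, fell by 1.14 ± 0.24 on the log2 scale in NT+/+ (adjusted p = 0.00193, edgeR) and by 1.25 ± 0.25 in NT-/- mice (adjusted p = 0.00123). The steroid receptor coactivators Ncoa2 and Ncoa3 had 0.21 ± 0.06 and -0.28 ± 0.08 in NT-/- mice (adjusted p = 0.00792 and 0.0137) and 0.08 ± 0.05 and -0.13 ± 0.08 in NT+/+ mice (adjusted p = 0.286 and 0.241).

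**Figure D3:**
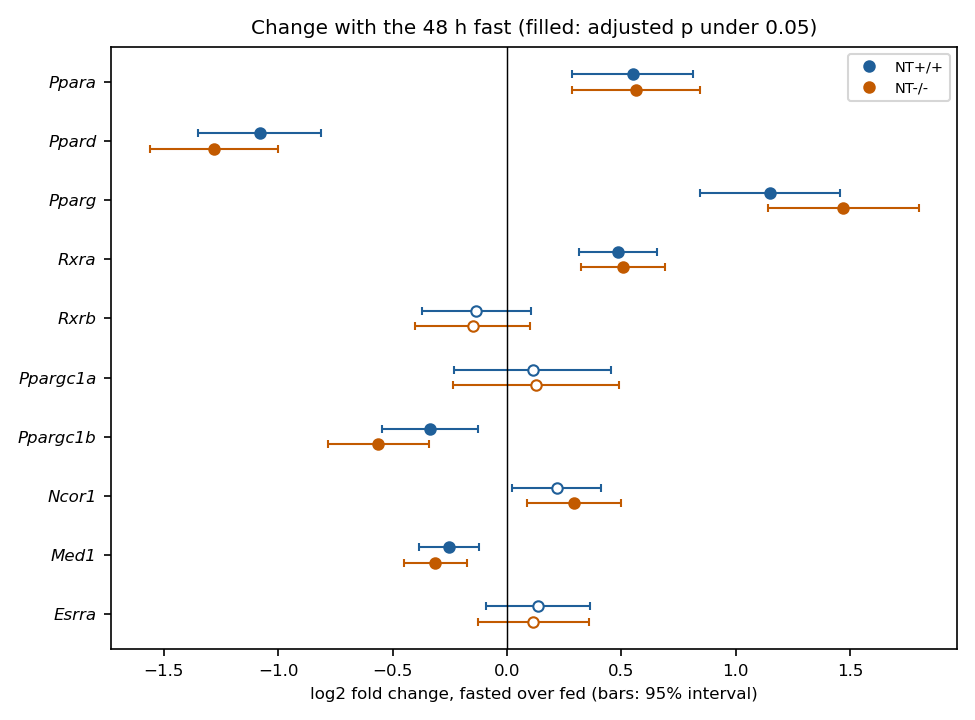
Log2 fold change, fasted over fed, of the 10 genes in NT+/+ (blue) and NT-/- (orange) mice, with 95% intervals from edgeR; filled points have an adjusted p under 0.05. The points of the same gene lie close together in the 2 genotypes, from -1.28 for Ppard to 1.47 for Pparg.

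Genes that PPARs are known to switch on were counted beside the receptors. The list was written from general knowledge with earlier results of these data known, so its counts are a description and not an independent test. Of 46 listed target genes 41 were tested, and 37 of the 41 rose and none fell in each genotype, against 11.2% upward of all genes tested in NT+/+ and 12.5% in NT-/- mice. Their median log2 fold change was 1.19 in NT+/+ and 1.38 in NT-/- mice, beside -0.01 and -0.02 over all genes, and 36 of them rose in both genotypes. Pdk4, which holds back the use of pyruvate, was at 0.336, 3.65, 1.39, 2.49 and 0.918 CPM in fed and 36.4, 45.4, 107, 59.9 and 30.9 CPM in fasted NT+/+ mice. Fed NT-/- mice had 1.24, 0.704, 1.4 and 0.586 CPM and fasted NT-/- mice 66.5, 67.3, 127, 111 and 49.0 CPM. No fasted mouse overlapped with the fed mice of its genotype. Its log2 fold change was 4.97 ± 0.46 in NT+/+ and 6.36 ± 0.54 in NT-/- mice (adjusted p = 4.05e-07 and 1.24e-07, edgeR).

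Cpt1a, which admits long-chain fatty acids to the mitochondrion, rose less than Pdk4, by 0.81 ± 0.14 in NT+/+ and 0.86 ± 0.15 in NT-/- mice on the log2 scale (adjusted p = 0.000368 and 0.00032, edgeR). Acaa2, the thiolase of mitochondrial β-oxidation, had the smallest p of the list in both genotypes, with 2.05 ± 0.09 and 2.16 ± 0.10 (adjusted p = 1.33e-11 and 2.53e-11). Acadl, a long-chain acyl-CoA dehydrogenase, had 2.06 ± 0.13 and 2.28 ± 0.15 (adjusted p = 5.06e-09 and 4.22e-09). Acot1, a cytosolic acyl-CoA thioesterase with the near-identical copy Acot2, had 4.32 ± 0.25 and 4.46 ± 0.27 (adjusted p = 1.52e-09 and 3.28e-09), and its reads could be divided between the copies in either way. The 4 tested genes that did not pass in NT+/+ mice were Scd1 (-0.41 ± 0.49), Eci1 (0.18 ± 0.08), Pnpla2 (0.22 ± 0.09), and Me1 (0.95 ± 0.52), and in NT-/- mice they were Scd1 (-1.17 ± 0.52), Eci1 (0.16 ± 0.08), Cpt1b (0.58 ± 0.23), and Me1 (0.78 ± 0.55). Cyp4a10, an ω-hydroxylase with close copies among which reads may be divided, had 0 to 10 counts in fed and 246 to 1145 counts in fasted mice, and was named after its values were seen. Cyp4a14, Fgf21, Ucp3, Cidea, and Lpl had too few counts to test; among them Fgf21, the fasting hormone of the liver, had at most 2 counts in any mouse.

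**Figure D4:**
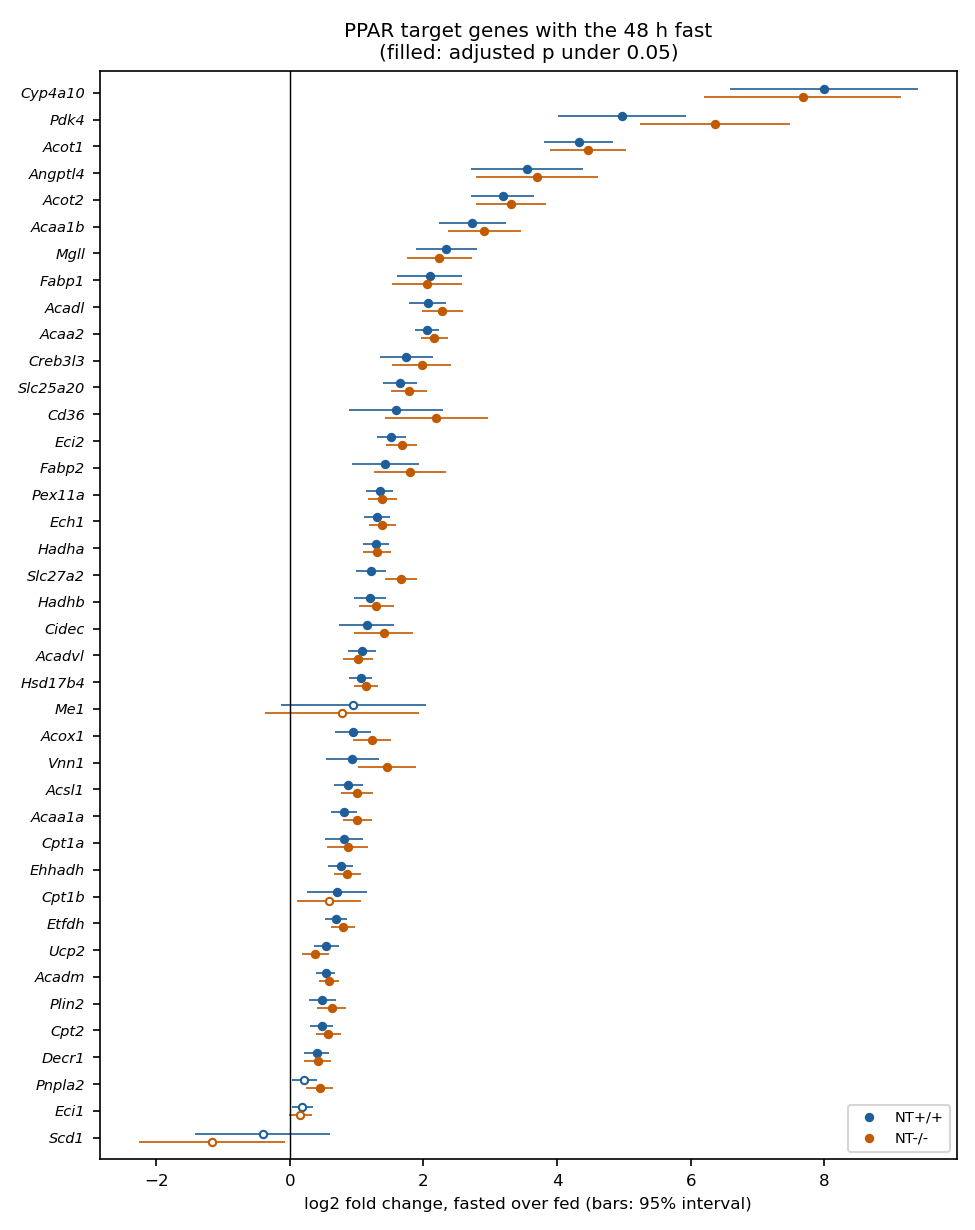
Log2 fold change, fasted over fed, of 40 of the 41 tested PPAR target genes in NT+/+ (blue) and NT-/- (orange) mice, with 95% intervals from edgeR; filled points have an adjusted p under 0.05. In each genotype 36 points are filled, all to the right of 0, and Scd1 is the only gene to the left.

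The relaxed direct repeat was in 1 of the 38 promoter windows (2.63%) of the 33 target genes with a window, against 2.14% of all windows. This window was that of Fabp1, the liver-type fatty acid binding protein that carries ligands to PPARα, and the full repeat was in none of the 38. The match was not measured for binding, and its part in the level of Fabp1 was not tested. The 100 bases before the annotated gene on the plus strand (chr6:71199727-71199826) are shown because they hold this match, in capitals, which reads along the other strand and lies 56 to 66 bases before the RefSeq start site.
Fabp1: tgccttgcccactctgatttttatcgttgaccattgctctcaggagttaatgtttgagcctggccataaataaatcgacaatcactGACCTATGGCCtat
Fabp1 itself was at 107, 228, 221, 303 and 225 CPM in fed and 623, 915, 824, 1214 and 1038 CPM in fasted NT+/+ mice. The values in NT-/- mice were 284, 222, 207 and 357 CPM fed and 953, 1078, 907, 1443 and 1178 CPM fasted. The log2 fold change was 2.09 ± 0.23 in NT+/+ and 2.05 ± 0.25 in NT-/- mice (adjusted p = 3.8e-06 and 9.4e-06, edgeR), with no overlap between fed and fasted mice.

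Fabp1 also belongs to the 20 listed genes that make, release, or carry ligands of PPAR and RXR, of which 11 were tested. Of the tested genes 6 rose and 2 fell in each genotype, against 21.6% of all genes called in NT+/+ and 25.2% in NT-/- mice. Their median log2 fold change was 0.52 in NT+/+ and 0.70 in NT-/- mice. Fabp2, the intestinal fatty acid binding protein, had 1.43 ± 0.24 and 1.80 ± 0.26 (adjusted p = 0.000298 and 6.02e-05, edgeR). Rbp2, the cellular retinol binding protein of enterocytes, had 1.55 ± 0.21 and 1.63 ± 0.23 (adjusted p = 3.47e-05 and 4e-05). Fabp5, which delivers ligand to PPARδ, had lower levels after fasting, by 0.50 ± 0.13 in NT+/+ and 0.64 ± 0.13 in NT-/- mice on the log2 scale (adjusted p = 0.00737 and 0.00165); it was named after its values were seen. Fabp1, Fabp2, Lpl, and Pnpla2 stand in both this list and that of the target genes.

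Of 27 other nuclear receptors, most of them partners of RXR, 23 were tested. In NT+/+ mice 10 rose and 2 fell, against 21.6% of all genes called, and in NT-/- mice 10 rose and 1 fell, against 25.2%. The threshold was passed by 11 in both genotypes, and the medians were 0.20 and 0.16. Nr1i3 (CAR), a receptor of foreign compounds, rose by 1.21 ± 0.20 and 1.15 ± 0.21 on the log2 scale (adjusted p = 0.00025 and 0.000566, edgeR). Nr1h4 (FXR), the bile acid receptor, rose by 0.73 ± 0.13 and 0.82 ± 0.13 (adjusted p = 0.000356 and 0.000221), and Thra, the thyroid hormone receptor α, by 0.48 ± 0.08 and 0.47 ± 0.08 (adjusted p = 0.000267 and 0.000423). Nr1d2 (REV-ERBβ), a repressor of the circadian clock, rose by 0.62 ± 0.13 and 0.86 ± 0.14 (adjusted p = 0.00233 and 0.000194).

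Between genotypes none of the 10 genes passed the test in either diet. In fed mice 1 gene of 17875 was called (0.00559%), Nts itself, and the adjusted p was 1.0 for all 10 members. At an unadjusted p under 0.05, which 1.67% of all genes reached, none of the 10 stood, and their log2 differences (NT-/- minus NT+/+) lay between -0.0046 for Pparg and 0.30 for Ppargc1a. In fasted mice Nts was again the only gene called (0.00559%), and 1 member, Pparg, reached an unadjusted p under 0.05, as did 9.14% of all genes. Pparg was 13.5 ± 1.25 CPM in fasted NT+/+ and 16.8 ± 1.59 CPM in fasted NT-/- mice, a log2 difference of 0.31 ± 0.14 (95% interval 0.02 to 0.61; unadjusted p = 0.039, adjusted p = 0.507, edgeR), with overlapping mice. For Ppara the difference was 0.16 ± 0.13 (95% interval -0.11 to 0.42), and for Ppard -0.09 ± 0.13 (95% interval -0.35 to 0.18), the latter turning to 0.075 without fasted NT+/+ mouse 3. All 10 intervals lay within a log2 difference of 1 in either direction, in both diets.

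Whether the effect of fasting differed between genotypes was tested as an interaction in the same fit. No gene of the 17875 was called (0%), and 2.71% had an unadjusted p under 0.05, none of them a member. The differences ranged from -0.22 for Ppargc1b (unadjusted p = 0.14, adjusted p = 1.0, edgeR) to 0.32 for Pparg (unadjusted p = 0.147, adjusted p = 1.0). The 95% intervals were -0.12 to 0.76 for Pparg, -0.59 to 0.19 for Ppard, and -0.37 to 0.40 for Ppara. Of the 10 intervals all lay within 1 and 6 within 0.5 on the log2 scale in either direction. No gene of the target list was called between genotypes in either diet; in fasted mice 36 of the 41 had a positive log2 difference (8458 of all 17875 genes) and 10 had an unadjusted p under 0.05 (9.14% of all genes), while the 10 enterocyte markers were all higher in NT-/- mice, 5 of them at an unadjusted p under 0.05 and none called.

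**Figure D5:**
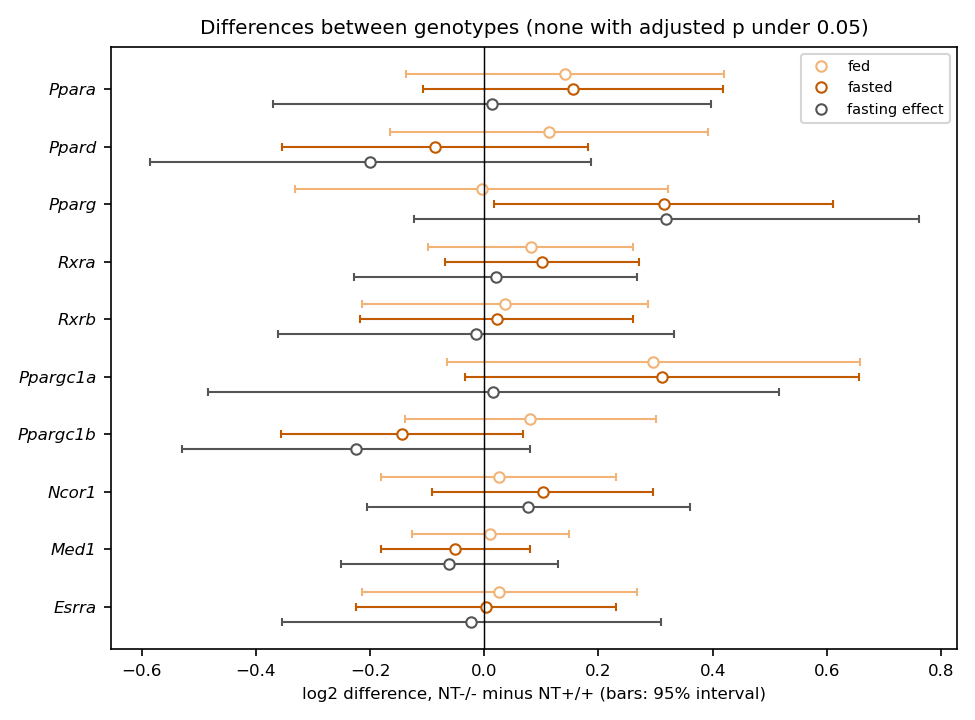
Log2 difference, NT-/- minus NT+/+, of the 10 genes in fed mice, in fasted mice, and in the effect of fasting, with 95% intervals from edgeR; open points have an adjusted p of 0.05 or more. All points are open, and among the single comparisons only the interval of Pparg in fasted mice, 0.02 to 0.61, leaves out 0.

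For each member called in either genotype, the 3 tested genes with the most similar log2 CPM over the 19 mice were found, by Pearson's r; the mice share their group and library depth, so these values are descriptions without a test. Ppard was most like Mien1 (r = 0.962), Plekha6 (r = 0.958) and Coro1b (r = 0.955), and Pparg was most like Sec22c (r = 0.973), Fbp1 (r = 0.970) and Fbp2 (r = 0.967), where Fbp1 and Fbp2 encode fructose bisphosphatases. Ppara was closest to Oaz2 (r = 0.936), Slc16a13 (r = 0.929) and Plin2 (r = 0.913), of which Plin2 coats lipid droplets and stands in the target list. Rxra was closest to Furin (r = 0.972), P4hb (r = 0.964) and Dnpep (r = 0.963). The genes nearest to Ppargc1b were Slc4a2 (r = 0.956), Sprr2a3 (r = 0.946) and Capn13 (r = 0.934), and those nearest to Med1 were Pla2g4a (r = 0.982), Cps1 (r = 0.966) and Prepl (r = 0.966). Ncor1 was nearest to Dpp4 (r = 0.970), Dab1 (r = 0.968) and Ahnak (r = 0.964), with Dpp4 a peptidase of the brush border. With the group means removed, r was 0.95 between Ncor1 and Dpp4, 0.75 between Ppard and Mien1, and 0.70 between Pparg and Sec22c.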

How the data were processed

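Crypt RNA of 19 mice was sequenced as single-end reads of ribosomal RNA-depleted libraries. The authors trimmed the reads with Trimmomatic 0.39 and estimated expected counts per gene with RSEM on GRCm38 transcripts (RSEM version and strand setting are not given in the sources used here). The deposited files hold expected counts, TPM, and transcript lengths. Expected counts were rounded and tested in R 4.3.3 with edgeR 4.0.16: TMM scaling, filterByExpr (17875 genes kept of 55487), 1 coefficient per group, quasi-likelihood tests, and Benjamini-Hochberg adjustment over all genes tested, with calls at 0.05. CPM are TMM-scaled, and TPM served for levels and shares. The scripts were tested on simulated data. The p-values rest on the spread between mice within their groups, estimated over all groups together and moderated across genes. The reported fit treats mice as independent, with no block for the replicate number that mice share across groups.

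The members and lists were chosen with earlier results of these data known. Apart from the members and Nts, named genes are Cpt1a and Pdk4, the 3 called genes of smallest p in each list and fasting comparison, and the 3 genes most like each called member. Other genes (Cyp4a10, Fabp5, Plin4, Rxrg, Fgf21, the target genes that did not pass the test, and untested genes) were named after their values were seen. Replicate numbers differ between titles and file names for some mice. Deviations of mice with the same file-name number correlated at over 0.1 for every pair in each of the 4 comparisons of diet or genotype (24 of 27 pairs over all group pairs, and 19 of 27 by title), so blocked fits were run by both. Further alternatives used DESeq2 1.42.0, other filters and scalings, sex, the mouse with disagreeing labels, and each mouse left out. The FPKM column was not used here, and 1 gene of the target list is counted but not reported by itself.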

Additional observations from a re-analysis of the deposited data

Results flagged for a closer look

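Of 56 groups of values examined, 4 groups for each of 14 genes, 2 held a mouse far from the others, where chance alone marks about 1 in 20 groups. Ppard in fasted NT+/+ mouse 3 was at 121 CPM, with the nearest mouse at 82.3 and the lowest at 67.4 CPM, a gap of 0.721 of the whole range and past the 95% limit of Dixon's test for 5 mice. The same mouse had the lowest Ppara of its group and a Ppard share of 68.2%. Without it, the fasting change of Ppard in NT+/+ mice was -1.24, and the difference between genotypes in fasted mice went from -0.09 ± 0.13 to 0.075 (adjusted p = 0.849, edgeR). Nts in fed NT-/- mouse 4 was at 0.746 CPM, with the nearest mouse at 0.216 CPM, a gap of 0.880 of the range and past the limit for 4 mice, still below every NT+/+ mouse.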

How the results depend on the processing

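The members' changes and the counts of genes, members, and (for fasting) PPAR target genes called were computed under 30 alternatives (29 for the interaction), and the PPAR shares under 5 or 6. The RXR and PGC-1 shares, the other lists, the markers, and single genes outside the members were computed in 1 way only. The 13 fasting changes of members that passed the test kept their sign in all 390 refits, with 5 to 7 members called in NT+/+ and 6 to 7 in NT-/- mice, and 35 to 40 and 35 to 39 PPAR target genes. The calls that turned were those of Ncor1 and, in NT+/+ mice, Ppargc1b. With a replicate block, Ncor1 in NT+/+ mice reached adjusted p = 0.045 (title number) and 0.0377 (file-name number), and up to 5484 genes in NT+/+ and 5672 in NT-/- mice were called; no other member call changed with the block. Without the 2 mice of fewest counts, an alternative chosen after seeing the data, Ppargc1a in NT-/- mice was at -0.0060. Leaving out each mouse gave -0.16 to 0.075 for Ppard between genotypes in fasted mice. The 30 genotype values of members changed sign in 75 of 890 refits, in 14 of the values, none of them called in any refit. Genes called between genotypes were 0 in both diets with at least 10 counts in every mouse or with the mouse of disagreeing labels as NT-/-, 3 (fed) and 101 (fasted) by DESeq2, and 3 and 41 by the likelihood ratio test, which also called 1 gene for the interaction; without 1 mouse, 1 to 4 were called in fasted mice, the 4 without fasted NT-/- mouse 1. The causes were not tested. With CPM in place of TPM, also chosen after seeing the data, the PPAR shares that moved by more than 1 SD were Ppard in fed NT+/+ (83.0%) and Pparg in fasted NT+/+ (9.47%) and NT-/- mice (11.5%). Among the members the SE of the genotype differences was widest for Ppargc1a, at 0.17 in fed and 0.16 in fasted mice.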
